A study of Mus musculus with 4 samples.

Results

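The 7 genes Slc1a2, Slc1a3, Slc1a1, Glul, Slc38a1, Slc38a3 and Slc6a11 handle the uptake and recycling of glutamate and GABA. They were followed in RNA-seq libraries of bead-isolated fractions of the cortex, with Ezh2 RNA lower but still detected in the knockout group. The set was chosen by function and gene name, with earlier results of these data known. All 7 were found once each among the 29224 genes of the deposited tables. The authors describe the cells as astrocytes, isolated from the cerebral cortex of mice at P5 with magnetic beads against GLAST (ACSA-1). There were 2 libraries from Ezh2 f/f mice and 2 from Ezh2 cKO mice. Both groups carry floxed Ezh2 alleles. The Ezh2 cKO mice also carry an Aldh1l1-icre transgene, so that recombination depends on activity of the promoter of the astrocyte gene Aldh1l1. The labels do not give the sex, the number of animals per library or whether libraries came from separate animals, so the p-values measure the spread between these libraries, which may be technical.

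Glutamate released at synapses is cleared mainly by astrocytes, through sodium-coupled excitatory amino acid transporters (EAATs) in their membrane. Inside the astrocyte, glutamine synthetase joins glutamate with ammonia to form glutamine, which leaves through one class of sodium-coupled carriers and enters neurons through another, where it is turned back into glutamate or GABA. GABA is itself taken up by separate transporters on neurons and astrocytes. In the rodent cortex, GLAST is known as the astrocyte transporter of the newborn and GLT-1 as the one that prevails in the adult.

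Total counts lay between 16273308 and 17522152 per library. Ezh2, the targeted gene, had counts of 434 and 327 in Ezh2 f/f, against 211 and 164 in Ezh2 cKO (log2 fold change -1.11, standard error 0.16, edgeR adjusted p = 3.26e-05). All 14 genes of an astrocyte marker list were detected, but the summed FPKM of 12 pan-neuron markers was higher than theirs in every library, by 18.8-fold to 18.9-fold in Ezh2 f/f and by 5.17-fold to 5.83-fold in Ezh2 cKO. Without Tubb3, the most abundant neuron marker, it was higher by 6.66-fold to 7.21-fold and by 3.28-fold to 3.73-fold. FPKM are reads scaled to gene length and to the total count of the library. The libraries are described by how they were isolated, as bead-isolated fractions of the cortex. Their share of astrocytes was not measured. In such bulk RNA, fewer cells of a type and less RNA per cell cannot be told apart.

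Of the 7 genes, 6 were higher and 1 was lower in Ezh2 cKO, with an adjusted p below 0.05 in edgeR's quasi-likelihood test, which was fitted to all 16793 genes that passed the filter on low counts. By the same rule 34.7% of all tested genes were higher and 33.6% lower. When a change of at least 2-fold was also required, 2 of the 7 genes were higher, Slc1a2 and Slc1a3, against 19.0% of all tested genes. All 7 genes passed the filter, and the lowest count of any of them in a library was 680. Their median log2 fold change was 0.82, and that of all tested genes was 0.02. Since the 7 were chosen with earlier results of these data known, this contrast is a description. The groups did not overlap for any of the 7 genes, in CPM; among all tested genes both Ezh2 cKO libraries lay above both Ezh2 f/f libraries for 42.8% and below them for 41.5%.

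**Figure D1:**
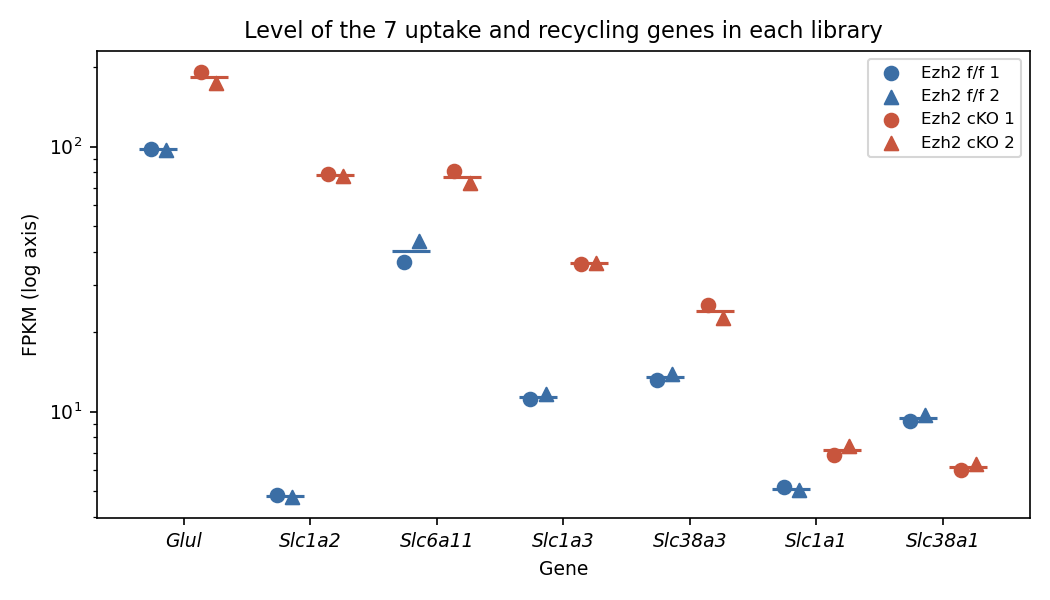
FPKM of the 7 genes in each library, on a log axis, ordered by their mean in Ezh2 cKO; circles and triangles are replicates 1 and 2, and lines are group means. Slc1a2 moved from the lowest of the 7 in Ezh2 f/f (4.78 and 4.83) to a level beside Slc6a11 in Ezh2 cKO (77.4 and 78.7), whereas Slc38a1 was lower in both Ezh2 cKO libraries.

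**Figure D2:**
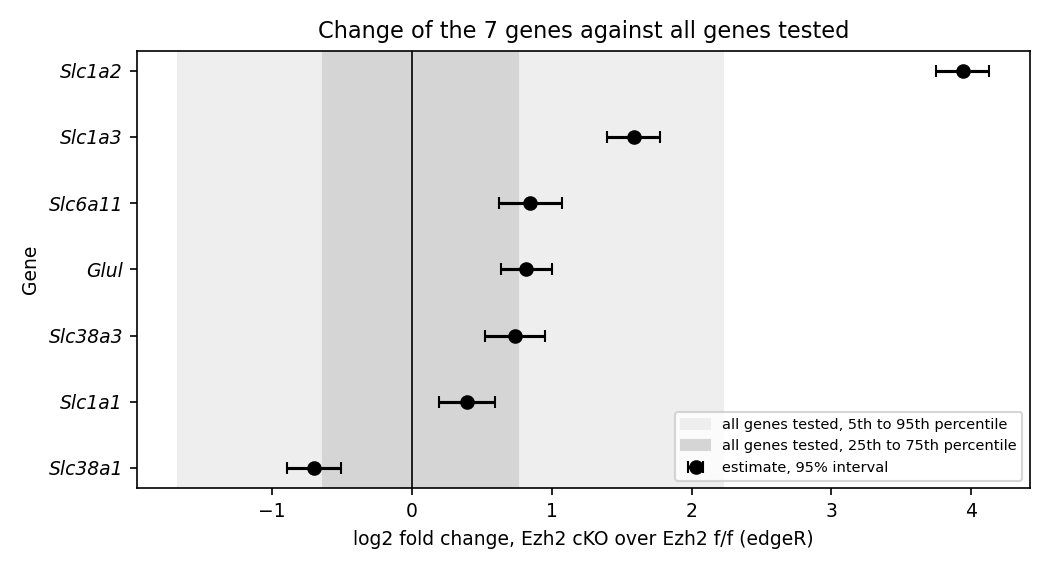
Log2 fold change of the 7 genes in Ezh2 cKO over Ezh2 f/f from edgeR, with 95% intervals; the light and dark bands span the 5th to 95th and the 25th to 75th percentile of all 16793 genes tested. Only Slc1a2, at 3.94, lies outside the light band, which runs from -1.67 to 2.23.

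Promoter sequences were read from a set of RefSeq promoter windows (GRCm38.p6). This set held 5 of the 7 genes and had no entry for Slc38a1 and Slc38a3. Shown are the 250 bases before the RefSeq start for 3 astrocyte genes of the set that were all higher in Ezh2 cKO and whose windows hold no start of a protein-coding GENCODE M21 transcript. The 3 were picked for printing with their CpG content known, so its contrast among them is a description. Capitals mark CpG dinucleotides, and sequences read 5′ to 3′ on the strand of the gene. The windows are chr15:8710808-8711057 on the minus strand for Slc1a3, and chr1:153899679-153899928 and chr6:114130991-114131240 on the plus strand for Glul and Slc6a11.
Slc1a3: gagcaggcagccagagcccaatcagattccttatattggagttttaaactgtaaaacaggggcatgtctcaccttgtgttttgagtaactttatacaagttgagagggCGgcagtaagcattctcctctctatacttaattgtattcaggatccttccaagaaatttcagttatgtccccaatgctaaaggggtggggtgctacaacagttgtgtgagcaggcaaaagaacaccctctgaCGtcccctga
Glul: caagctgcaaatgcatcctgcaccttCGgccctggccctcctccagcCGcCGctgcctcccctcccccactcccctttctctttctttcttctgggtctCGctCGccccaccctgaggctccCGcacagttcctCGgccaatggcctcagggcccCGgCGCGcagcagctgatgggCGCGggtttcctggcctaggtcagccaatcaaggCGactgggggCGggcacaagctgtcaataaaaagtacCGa
Slc6a11: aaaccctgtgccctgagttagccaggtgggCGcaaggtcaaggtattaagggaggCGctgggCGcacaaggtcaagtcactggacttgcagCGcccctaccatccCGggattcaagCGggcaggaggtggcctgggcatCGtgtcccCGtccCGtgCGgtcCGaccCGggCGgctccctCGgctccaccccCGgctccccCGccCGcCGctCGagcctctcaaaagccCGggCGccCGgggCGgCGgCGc
The window of Slc1a3 holds 2 CpG, that of Glul 15 and that of Slc6a11 25, against a median of 6 over the 32851 windows in the table. Slc1a3 thus had fewer CpG than most windows (81.2% hold as many or more), whereas Glul and Slc6a11 had more than most (27.3% and 10.7% hold as many or more). The window of Slc1a1 holds 27 CpG. The one listed for Slc1a2 holds 1, but it lies 47.8 kb inside the gene, at a start that 2 of its 7 protein-coding GENCODE M21 transcripts use, so it says nothing about the outer promoter. Counts per gene do not tell the starts apart.

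Both strands of the 5 windows were also searched for a few short motifs. GGGCGG, the GC box, occurs 3 times for Slc6a11, once each for Slc1a3, Glul and Slc1a1 and not in the Slc1a2 window; 32.7% of all windows hold it. TTCNNNGAA, a STAT motif, and TATAAA occur once each for Slc1a3 and in none of the other 4, and are held by 7.02% and 12.4% of all windows. TTGGC, which is part of the NFI motif, occurs 2 times for Glul and once each for Slc1a2 and Slc1a1, against 41.5% of all windows. The full palindromic NFI motif was in none of the 5 windows and in 0.0365% of all. These are matches of letters, not binding sites.

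Slc1a2 encodes GLT-1, also called EAAT2, the main glutamate transporter of mature forebrain astrocytes. The gene (ENSMUSG00000005089) lies on the plus strand of chromosome 2, at 102489004 to 102621129 in the deposited coordinates. Its level was 4.83 and 4.78 FPKM in Ezh2 f/f, against 78.7 and 77.4 FPKM in Ezh2 cKO. The Ezh2 f/f libraries were both low and nearly equal, and both Ezh2 cKO libraries were far above them. Mean levels were 4.80 ± 0.0389 and 78.1 ± 0.924 FPKM (SD, n = 2 each), and edgeR gave a 15.3-fold rise (95% interval 13.5 to 17.5, adjusted p = 4.15e-12). Of all genes tested, 124 (0.738%) had a larger log2 fold change. By mean FPKM over the 29224 genes, Slc1a2 ranked number 7334 in Ezh2 f/f and number 664 in Ezh2 cKO.

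Slc1a3 encodes GLAST, also called EAAT1, the transporter of radial glia and young astrocytes and the antigen by which the beads captured the cells. The gene (ENSMUSG00000005360) lies on the minus strand of chromosome 15, at 8663608 to 8740248 in the deposited coordinates. It had 11.1 and 11.6 FPKM in Ezh2 f/f, against 36.1 and 36.5 FPKM in Ezh2 cKO. Both Ezh2 cKO libraries were again above both Ezh2 f/f libraries, and the replicates lay close together. The rise was 3.01-fold in edgeR (95% interval 2.64 to 3.43, adjusted p = 2.71e-09), and 10.7% of all tested genes had a larger log2 fold change. The part of the selection on GLAST protein in the level of Slc1a3 was not tested.

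Slc1a1 encodes EAAC1, also called EAAT3, which is mostly found on neurons. The gene (ENSMUSG00000024935) lies on the plus strand of chromosome 19, at 28812449 to 28891360 in the deposited coordinates. It had 5.18 and 5.06 FPKM in Ezh2 f/f, against 6.86 and 7.41 FPKM in Ezh2 cKO. Both Ezh2 cKO libraries were higher, with the smallest change of the 7 genes (1.31-fold, 95% interval 1.14 to 1.51, edgeR adjusted p = 0.00189). Spata6l overlaps Slc1a1 on the other strand in GENCODE M21, and had between 41 and 50 counts per library, against at least 680 for Slc1a1.

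The 3 EAAT genes of the set thus changed in unequal measure. Slc1a6, which encodes EAAT4, is outside the set and is not part of the sum and shares below. It had 6.76 and 9.74 FPKM in Ezh2 f/f, against 11.5 and 10.6 FPKM in Ezh2 cKO (edgeR adjusted p = 0.0827), so shares among all EAAT genes would be smaller. Their summed level was 21.1 and 21.5 FPKM in Ezh2 f/f, against 122 and 121 FPKM in Ezh2 cKO. Slc1a2 made up 22.9% and 22.2% of this sum in Ezh2 f/f, against 64.7% and 63.8% in Ezh2 cKO. The share of Slc1a3 was 52.6% and 54.2% in Ezh2 f/f, against 29.6% and 30.1% in Ezh2 cKO, so that the leading EAAT transcript was Slc1a3 in both Ezh2 f/f libraries and Slc1a2 in both Ezh2 cKO libraries. Slc1a1 went from 24.5% and 23.6% to 5.64% and 6.11%. The ratio of Slc1a2 to Slc1a3, which does not depend on how libraries are scaled, was 0.434 and 0.410 in Ezh2 f/f, against 2.18 and 2.12 in Ezh2 cKO. With 2 libraries against 2, an exact permutation test of a single ratio cannot go below p = 0.333, so these ratios are given without a test; the 95% intervals of the fold changes of the 3 genes do not overlap.

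**Figure D3:**
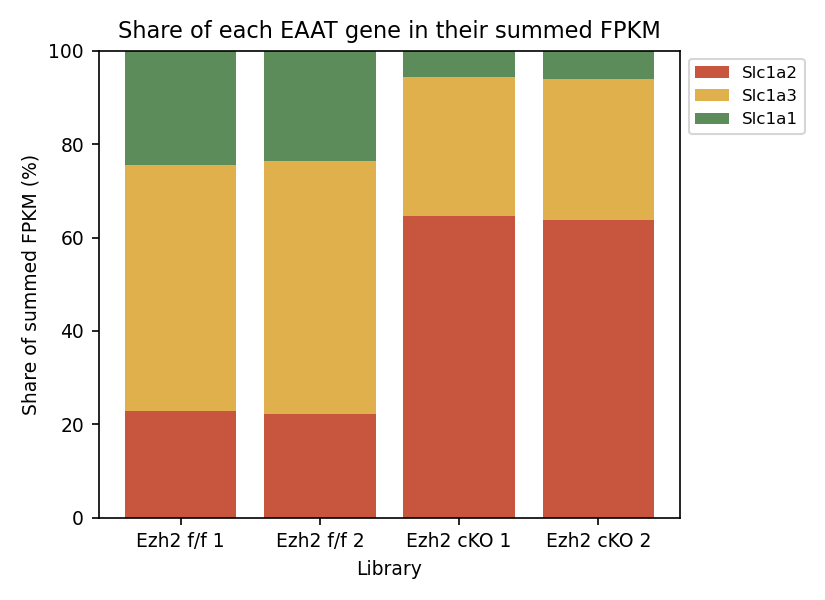
Share of Slc1a2, Slc1a3 and Slc1a1 in their summed FPKM, in percent, for each of the 4 libraries. Slc1a6, a further EAAT gene, is not in the sum. Slc1a2 holds 22.2% to 22.9% in the Ezh2 f/f libraries and 63.8% to 64.7% in the Ezh2 cKO libraries, and Slc1a3 and Slc1a1 hold smaller shares in Ezh2 cKO although their own levels were higher.

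Glul encodes glutamine synthetase, the enzyme of astrocytes that turns captured glutamate into glutamine. The gene (ENSMUSG00000026473) lies on the plus strand of chromosome 1, at 153775690 to 153785469 in the deposited coordinates. It was the most abundant of the 7 genes in both groups, with 97.8 and 97.1 FPKM in Ezh2 f/f, against 191 and 173 FPKM in Ezh2 cKO. The Ezh2 cKO libraries differed more from each other than the Ezh2 f/f libraries did, but both were higher (1.77-fold, 95% interval 1.56 to 2.00, edgeR adjusted p = 9.90e-07). Pseudogenes of Glul could share its reads, and Glns-ps1 and Gm4949 had between 1 and 4 counts per library. These counts do not show how reads that match both Glul and a pseudogene were handled. Teddm2, which overlaps Glul on the other strand, had between 38 and 61.

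Slc38a3 and Slc38a1 encode glutamine carriers of opposite sides of the cycle. SNAT3, the product of Slc38a3, releases glutamine from astrocytes, and SNAT1, the product of Slc38a1, takes it up mainly into neurons. Slc38a3 (ENSMUSG00000010064) is deposited on chromosome 9 from 107527833 to 107546729, and Slc38a1 (ENSMUSG00000023169) on chromosome 15 from 96469299 to 96540794, both on the minus strand. Slc38a3 had 13.2 and 13.9 FPKM in Ezh2 f/f, against 25.3 and 22.5 FPKM in Ezh2 cKO. Both Ezh2 cKO libraries were higher (1.67-fold, 95% interval 1.44 to 1.94, edgeR adjusted p = 1.58e-05). Slc38a1 had 9.23 and 9.68 FPKM in Ezh2 f/f, against 6.01 and 6.33 FPKM in Ezh2 cKO. It was the single gene of the 7 that fell, with a log2 fold change of -0.70 (95% interval -0.89 to -0.51, edgeR adjusted p = 9.42e-06). The ratio of Slc38a3 to Slc38a1 was 1.43 in both Ezh2 f/f libraries, against 4.21 and 3.56 in the Ezh2 cKO libraries.

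Slc6a11 encodes GAT3, a GABA transporter of astrocytes. The gene (ENSMUSG00000030307) lies on the plus strand of chromosome 6, at 114108202 to 114226913 in the deposited coordinates. It had 36.5 and 43.9 FPKM in Ezh2 f/f, against 81.0 and 72.5 FPKM in Ezh2 cKO. Its replicates were the most spread of the 7 genes in Ezh2 f/f, yet the groups stayed apart (1.80-fold, 95% interval 1.54 to 2.10, edgeR adjusted p = 6.40e-06).

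Between genes, levels were compared per length, in FPKM. In Ezh2 f/f the order from high to low was Glul, Slc6a11, Slc38a3, Slc1a3, Slc38a1, Slc1a1 and Slc1a2, and no neighbours overlapped in their 2 libraries. In Ezh2 cKO it was Glul, Slc1a2, Slc6a11, Slc1a3, Slc38a3, Slc1a1 and Slc38a1, where Slc1a2 and Slc6a11 did not differ beyond their spread. The lengths behind the FPKM range from 3782 bases for Glul to 17236 for Slc38a1 and count every annotated exon. With the longest protein-coding transcript as the length instead, Slc6a11 and Slc1a2 changed places in Ezh2 cKO, as did Slc1a3 and Slc38a3 in Ezh2 f/f.

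Among all tested genes with counts in every library, those whose centred log2 CPM lay nearest to Slc1a2 over the 4 libraries were Gm14403 and Gm19410, at root mean square distances of 0.0542 and 0.0590. Nearest to Slc1a3 were Sh3d19 and Cbx6, at 0.0187 and 0.0237. Cbx6 encodes a chromobox protein of the Polycomb group, and a link between it and Slc1a3 was not tested. These distances rest on 4 values per gene, in 2 groups.

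Other genes of glutamate and GABA handling were taken from a list of 31 genes, all of which were tested. With an adjusted p below 0.05 in edgeR, 18 were higher and 2 lower, 7 of the 18 by at least 2-fold, against 34.7%, 33.6% and 19.0% of all tested genes, and the median log2 fold change was 0.35. The calls of Slc1a4 and Arl6ip5 were lost when Ezh2 f/f replicate 1 or Ezh2 cKO replicate 1 was left out, and that of Arl6ip5 also without Ezh2 cKO replicate 2. Among enzymes that make or consume glutamate, Gls2, the gene for a glutaminase, had a log2 fold change of 2.54 (adjusted p = 1.99e-07), and Got1, the gene for cytosolic aspartate aminotransferase, one of 1.31 (1.35e-07). Glud1, the gene for glutamate dehydrogenase, was higher as well (0.62). Got2, for the mitochondrial aminotransferase, was at -0.10 (adjusted p = 0.366).

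**Figure D4:**
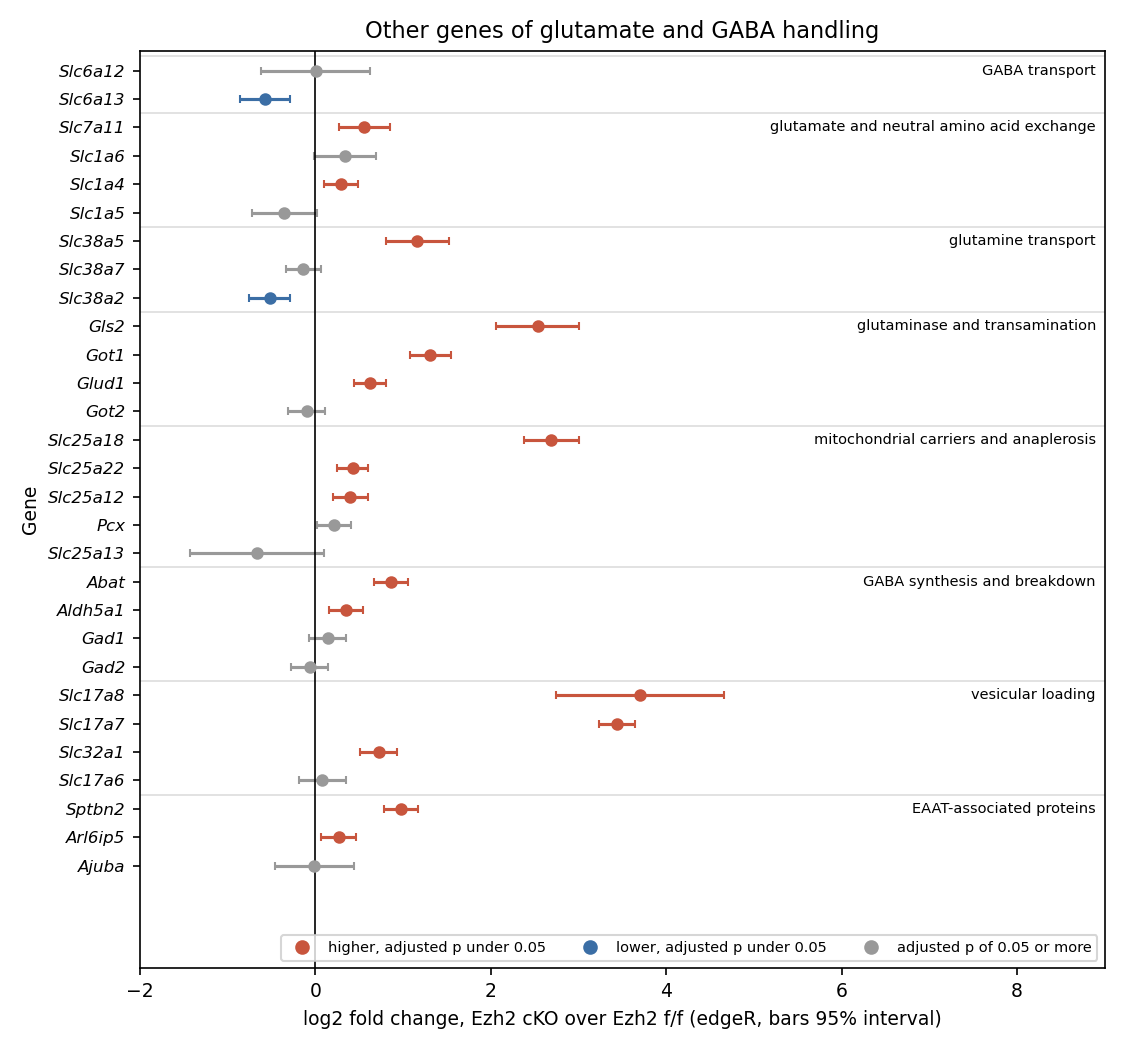
Log2 fold change of 29 of the 31 listed genes in Ezh2 cKO over Ezh2 f/f from edgeR, grouped by role, with 95% intervals; red and blue mark the genes with an adjusted p below 0.05, grey the others. The 16 higher genes plotted include 6 with a log2 fold change of 1 or more, led by Slc17a8 (3.70) and Slc17a7 (3.44), and the 2 lower ones are Slc6a13 and Slc38a2.

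Of the mitochondrial carriers, Slc25a18, a glutamate carrier, had counts of 196 and 242 in Ezh2 f/f, against 1703 and 1326 in Ezh2 cKO (log2 fold change 2.69, edgeR adjusted p = 2.14e-09). Slc25a22, the other glutamate carrier, was at 0.42 (adjusted p = 4.36e-04). Among glutamine carriers Slc38a5 was higher (1.16, adjusted p = 2.96e-05), Slc38a2 was lower (-0.52, adjusted p = 7.53e-04) and Slc38a7 was at -0.14 (adjusted p = 0.195). Slc7a11, the gene of the cystine and glutamate exchanger, had a log2 fold change of 0.56 (adjusted p = 0.00226).

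Genes of GABA handling other than Slc6a11 were mixed. Slc6a13, the gene for GAT2, was lower (log2 fold change -0.57, edgeR adjusted p = 0.00162), and its call was lost without Ezh2 cKO replicate 2. With limma on log2(FPKM + 1) without a filter, the calls of Slc6a13, Slc38a2 and Slc7a11 were lost. Slc6a12 was at 0.00 (adjusted p = 0.996). Abat, the gene for GABA transaminase, which breaks GABA down, was higher (0.86, adjusted p = 1.29e-06). Gad1 and Gad2, which encode the enzymes that make GABA, were at 0.14 and -0.07 (adjusted p = 0.219 and 0.554), and a change in them was not detected. Of the genes for vesicular transporters, Slc17a7 and Slc17a8, for glutamate, had log2 fold changes of 3.44 and 3.70. Slc17a8 rests on few reads, with 4 counts in each Ezh2 f/f library and 46 and 68 in Ezh2 cKO. It did not pass the filter of a mean of at least 50 counts or that of the filtered limma fits, so it was not tested there. Slc32a1, for GABA, was at 0.72 (adjusted p = 1.62e-05), and Slc17a6, for glutamate, at 0.08 (adjusted p = 0.586).

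Levels of cell type markers moved with the same groups. Among all tested genes 34.7% were higher and 33.6% lower. Of the 14 astrocyte markers 12 were higher and the other 2, Aldh1l1 and Sox9, had log2 fold changes of -0.15 and -0.06 and did not pass the test (edgeR adjusted p = 0.175 and 0.758). The median log2 fold change of the astrocyte list was 2.00, and its summed level was 153 and 163 FPKM in Ezh2 f/f, against 647 and 576 FPKM in Ezh2 cKO, led by Aldoc, Atp1b2 and Gfap. Relative to that sum Slc1a2 was at 3.16% and 2.93% in Ezh2 f/f, against 12.2% and 13.4% in Ezh2 cKO. Slc1a3 was at 7.28% and 7.14% of it in Ezh2 f/f, against 5.58% and 6.33% in Ezh2 cKO, and Glul at 64.0% and 59.6% in Ezh2 f/f, against 29.5% and 30.1% in Ezh2 cKO. Slc38a3 went from 8.64% and 8.50% to 3.91% in both Ezh2 cKO libraries, and Slc6a11 from 23.9% and 27.0% to 12.5% and 12.6%. These shares depend on the markers in the sum. Without Gfap, Slc1a3 was at 7.77% and 7.55% in Ezh2 f/f, against 7.19% and 7.99% in Ezh2 cKO, and the groups overlapped. Relative to Aldh1l1 or to Sox9 alone, Slc1a2, Slc1a3, Glul, Slc38a3 and Slc6a11 were all higher in both Ezh2 cKO libraries. Aldh1l1 and Sox9 changed little themselves, so these ratios mostly repeat each gene's own fold change. These comparisons without Gfap and with single markers were chosen after seeing the data.

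**Figure D5:**
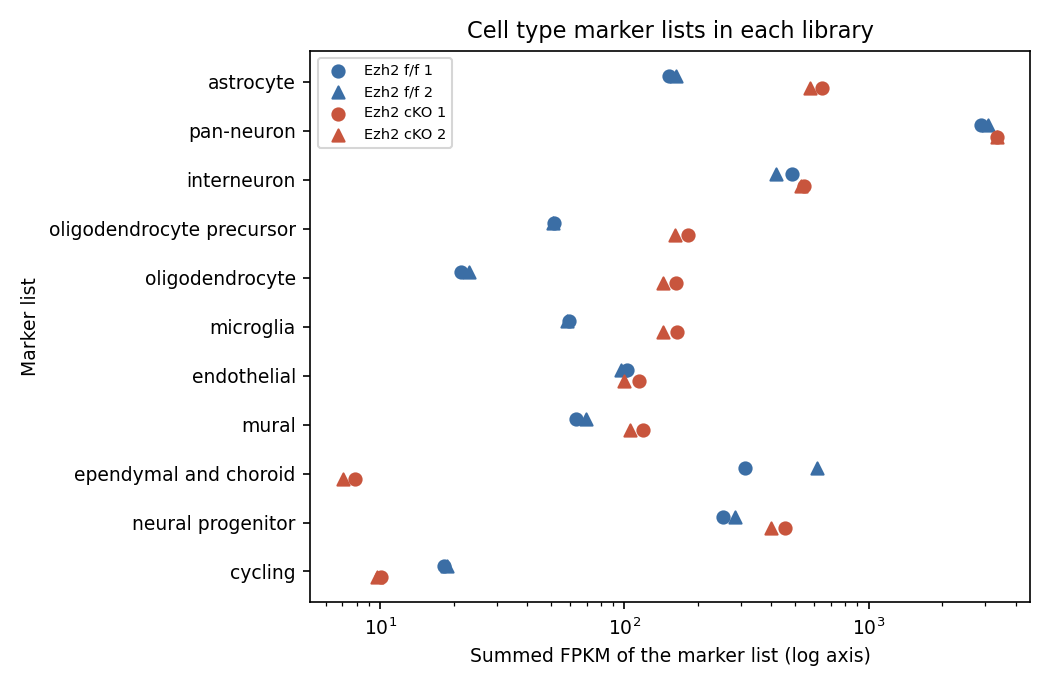
Summed FPKM of each cell type marker list in the 4 libraries, on a log axis; circles and triangles are replicates 1 and 2. The astrocyte list was at 153 and 163 in Ezh2 f/f and at 647 and 576 in Ezh2 cKO, the lists of oligodendrocyte precursors, oligodendrocytes and microglia were also higher in both Ezh2 cKO libraries, and the ependymal and choroid list was at 313 and 616 in Ezh2 f/f and at 7.92 and 7.05 in Ezh2 cKO.

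Of 12 pan-neuron markers 11 were higher and Tubb3 was lower, with a median log2 fold change of 1.35. Their summed level was 2877 to 3072 FPKM in Ezh2 f/f, against 3342 to 3358 FPKM in Ezh2 cKO, and 1017 to 1174 against 2119 to 2151 FPKM without Tubb3. All 7 oligodendrocyte precursor markers were higher (51.1 to 51.3 FPKM summed in Ezh2 f/f, 161 to 182 in Ezh2 cKO), as were the 7 tested of 8 oligodendrocyte markers (21.4 to 23.1, and 143 to 163) and all 9 microglia markers (58.4 to 59.1, and 145 to 164). Of 8 interneuron markers 2 were higher and 3 lower (418 to 486 FPKM summed in Ezh2 f/f, 530 to 542 in Ezh2 cKO), of 8 endothelial markers 3 and 1 (97.2 to 102, and 100 to 114), and of 6 mural markers 3 and 1 (63.3 to 69.4, and 105 to 120). Without Sst the interneuron sum was lower in Ezh2 cKO (214 to 242, and 196 to 197). Of 8 neural progenitor markers 2 were higher and 6 lower, with a median log2 fold change of -1.22, although their summed level was higher (255 to 284 FPKM in Ezh2 f/f, 399 to 453 in Ezh2 cKO). Without Fabp7 that sum was lower (79.9 to 82.1, and 49.7 to 51.6). Of 7 cycling markers 6 were lower (18.3 to 18.7 FPKM summed in Ezh2 f/f, 9.71 to 10.1 in Ezh2 cKO). Of the 6 ependymal and choroid markers 2 were higher and 3 lower, and Ttr, a transcript of the choroid plexus, had counts of 6326 and 11598 in Ezh2 f/f, against 5 and 12 in Ezh2 cKO. Without Ttr the sum of this list was 8.30 to 15.4 FPKM in Ezh2 f/f, against 6.44 to 7.68 in Ezh2 cKO. These sums without the most abundant marker were chosen after seeing the data. No defining marker of these lists was at 0 in every library. The part of any of these cells in the change of the 7 genes was not tested.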

How the data were processed

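RNA of the bead-isolated cells at P5, which the authors describe as astrocytes, was sequenced on an Illumina HiSeq, with 2 libraries per group. The submitters' processing notes name Bowtie2 2.2.3, TopHat2 2.0.12, HTSeq 0.6.0 and the build mm9; the annotation and the use of strand are not given in the sources used here. The authors deposited raw read counts per gene and FPKM values, which scale counts to gene length and library total. The lengths implied by the deposited FPKM equal the union of exons in GENCODE M21 for 6 of the 7 genes. Coordinates are printed as deposited: of 28799 genes with a GENCODE M21 (GRCm38) identifier 581 have the same coordinates, so they are not GRCm38, and whether they are mm9 was not checked. The authors' own comparison (a mean, fold change, log2 fold change, p-values and calls) was not used, and 0 columns of sample values were left out.

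Counts were filtered with filterByExpr, normalized by TMM and tested with edgeR 4.0.16 in R 4.3.3 (group as the only term, Benjamini-Hochberg over 16793 genes). CPM are counts scaled to TMM-adjusted library size, and intervals are 95%. edgeR's quasi-likelihood test does not print standard errors or intervals. The standard errors were derived from each log2 fold change and the F statistic of its test, and the intervals from these standard errors. Ratios compare Ezh2 cKO with Ezh2 f/f. DESeq2 1.42.0 and limma 3.58.1 on log2(FPKM + 1) were alternatives, and all were tested on simulated data. Far fewer genes changed in the simulation than were called here, so it does not show how well these calls hold. Replicates differed by more than counting noise (chi-square over degrees of freedom 8.92 and 5.68). The 7 genes and all lists were chosen with earlier results of these data known. Named are the 7 genes, genes of the pathway list with at least a 2-fold change, the leading markers, and the 2 genes nearest in pattern to each member changed at least 2-fold; other genes of the lists were named after their values were seen. Sequences and starts came from RefSeq and GENCODE M21 (Python 3.11.15, pandas 2.3.3). Values of 2 genes of the pathway list are not reported here, although its counts include them.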

Additional observations from a re-analysis of the deposited data

How the results depend on the processing

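All 7 genes kept their direction and an adjusted p under 0.05 in all 13 alternative fits. Log2 fold changes ranged from 3.77 to 4.02 for Slc1a2, 1.55 to 1.67 for Slc1a3, 0.36 to 0.48 for Slc1a1, 0.73 to 0.91 for Glul, -0.74 to -0.54 for Slc38a1, 0.64 to 0.84 for Slc38a3 and 0.71 to 0.98 for Slc6a11. The highest adjusted p was 0.0388, for Slc1a1. The 2 lower genes of the pathway list became 4 without Ezh2 f/f replicate 1, where Got2 and Slc1a5 joined them, and 1 without Ezh2 cKO replicate 2, where Slc6a13 left; they were 0 with limma on log2(FPKM + 1) without a filter (2 at an unadjusted p under 0.05, and 2 with edgeR and DESeq2). The 3185 higher and 2352 lower genes with at least a 2-fold change over the whole table were 2110 and 1537 with a mean of at least 50 counts, 1600 and 1082 with limma on log2(FPKM + 1), and 1596 and 1068 without its filter. With the replicate number as a block the 7 calls were 6 higher and 1 lower, and the pathway list 19 and 2; deviations of libraries with the same number correlated at 0.119 across genes, and nothing in the labels pairs them. FPKM group ratios exceed those of TMM-scaled CPM by 0.08 on the log2 scale, since FPKM are scaled to total counts. The order by transcript length was chosen after seeing the data. With 2 libraries per group the spread of a single gene rests on the fit across all genes.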
